A study of Xenopus laevis with 27 samples.

Results

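The genes described here build and serve the cilium: dynein arms, radial spokes, tektins, other ciliary microtubule proteins, and the trains that carry them. Members were the probe sets whose platform gene symbol starts with dnah, dnai, dnal, dnaaf, cfap, rsph, tekt, ift, bbs, spag, drc or odad followed by a digit, or with dnal followed by i or c. This gave 77 of 32635 probe sets, carrying 55 of 11303 symbols and 49 genes. Xenopus laevis is an allotetraploid frog, and its paired gene copies carry the endings .L and .S. Of the 55 symbols, 38 end in .L and 17 in .S, and 6 genes have both copies on the array. Several probe sets stand for 1 symbol in 14 cases, so the 77 probe sets are not 77 separate genes, and 9 of them bear a suffix that marks probes shared between transcripts.

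A motile cilium bends because rows of dynein arms on its outer microtubule doublets slide the doublets against each other, while radial spokes and the central pair coordinate that sliding. Intraflagellar transport carries parts into the growing cilium, and the BBSome is an adaptor for membrane cargo, and both serve non-motile cilia too. In the Xenopus embryo the larval skin carries scattered multiciliated cells, and Notch signalling between neighbouring cells limits how many of them form.

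Expression was measured in Xenopus laevis embryos on 27 Affymetrix arrays, 3 for each of 9 groups. A single blastomere of the two-cell embryo received 1.5 ng of capped RNA, so the other side of each embryo was not injected. NICD is the intracellular domain of Notch, labelled ICD in the sample records, and turns the pathway on. DBM is a form of Suppressor of Hairless that cannot bind DNA and dampens the pathway, and GFP served as tracer and injection control. According to the series description NICD and DBM embryos also carried GFP. Each RNA sample was a pool of 10 whole embryos taken at stage 18 (neurula), stage 28 (tailbud) or stage 38 (swimming tadpole). In such bulk RNA, fewer ciliated cells and less RNA per ciliated cell cannot be told apart.

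Array values had been summarised by RMA on a log2 scale, on which a difference of 1 is a doubling, and levels of different probe sets are not comparable. Array medians lay between 6.83 and 6.99, and no 2 arrays held identical values. Of the 77 ciliary probe sets, 60 averaged 6 or more over the 27 arrays and 17 were dimmer. Arrays with the same replicate number deviated from their group means together. At stage 18 only replicate 1 stood apart. There numbers 2 and 3 correlated with each other at 0.48 to 0.57, against 0.45 to 0.56 within these numbers. Each comparison was therefore fitted with limma in 2 ways, unblocked and with the replicate number as a block within each stage, called the replicate block. A probe set passed when its adjusted p was below 0.05 over all 32635 probe sets. Among the 27 probe sets of 13 listed Notch target genes, 15, 7 and 0 were higher in NICD than in GFP embryos at stages 18, 28 and 38 without a block. Of all 32635 probe sets, 286, 135 and 20 were. With the replicate block 19, 20 and 1 of the 27 were higher, and 2009, 983 and 178 of all probe sets.

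At stage 18, most of the machinery for ciliary motility was lower in NICD than in GFP embryos with the replicate block, as were 4 of 24 transport probe sets. Without a block, 4 of the 77 members passed and all 4 were lower, where 0.732% of all probe sets were called lower. The replicate block gave 39 members that fell and 2 that rose, in 35 symbols, where 7.08% of all probe sets were called lower and 6.16% higher. The median difference of the members was -0.29, against 0.01 for all probe sets. It was -0.39 for the 60 brighter members and 0.03 for the 17 dim ones. Each NICD array lay below the GFP array of its own number for 47 of the 77 members, where 19.8% of all probe sets behaved so. The unblocked count depended on single arrays, and shares of all probe sets are not given for the fits with an array left out. Leaving out GFP replicate 1 gave 16, NICD replicate 2 or 3 gave 2, NICD replicate 1 or GFP replicate 2 gave 1, and GFP replicate 3 gave 0. With the arrays of these 2 groups alone, 0 members passed in limma unblocked, at a lowest adjusted p of 0.11, and 28 had an unadjusted p below 0.05. The count of 41 with the replicate block was 26 without NICD replicate 2 and 25 without GFP replicate 2.

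Among dynein arm subunits, 6 of 10 probe sets fell at stage 18 with the replicate block. dnai1.L encodes an intermediate chain of the outer arm. Its values were 7.53, 8.31 and 8.24 in NICD embryos, against 8.14, 8.81 and 8.82 in GFP embryos. Replicate 1 was lowest in both groups, so the groups overlapped although the NICD array was lower within every number. The difference was -0.56 ± 0.25 (SE), with a limma-adjusted p of 0.31 unblocked and 6.0e-05 with the replicate block. dnai4.S, another intermediate chain gene, read 6.84, 7.14 and 7.14 in NICD embryos, against 7.41, 7.60 and 7.60 in GFP embryos. These groups did not overlap, and the difference of -0.49 ± 0.10 (SE) passed in both limma fits, with adjusted p of 0.014 unblocked and 0.0013 with the replicate block. The outer arm light chain gene dnal1.L differed by -0.64, the inner arm light chain gene dnali1.S by -0.51 and the intermediate chain gene dnai2.S by -0.55, and all 3 fell with the replicate block. The remaining call was 1 of 3 probe sets of the light chain gene dnal4.S, at -0.26. Both probe sets of dnah9.S, an outer arm heavy chain gene, were dim, at 5.08 and 4.00 in GFP embryos, and differed by 0.01 and -0.03.

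Tektins are filament proteins of the doublet microtubules, and all 6 tektin probe sets fell at stage 18 with the replicate block. Their median difference of -0.74 was further from 0 than that of the other role classes. tekt3.S read 7.56, 7.90 and 7.98 in NICD embryos, against 8.32, 8.93 and 8.85 in GFP embryos. No value was shared between the ranges, and the difference of -0.88 ± 0.24 (SE) leaves 0.542 of the GFP level on a linear scale. Its limma-adjusted p was 0.071 unblocked and 1.3e-04 with the replicate block. The other 5 probe sets ranged from -0.83 in tekt4.S to -0.51 in tekt1.L, and both copies of tekt2 and of tekt3 fell.

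Genes for the proteins that hold and steer the arms were lower as well. Of the 12 probe sets for docking, nexin-dynein regulatory, radial spoke and central pair proteins, 8 fell with the replicate block. spag6.L, which encodes a central pair protein, has 6 probe sets. The one with the lowest p of all members without a block bears a suffix that marks probes shared between transcripts. It averaged 7.07 ± 0.12 in NICD embryos, against 7.57 ± 0.10 in GFP embryos (SD, n = 3 each), where single arrays were at 7.47, 7.56 and 7.68. Every NICD value was below every GFP value, and the difference of -0.50 ± 0.10 (SE) had a limma-adjusted p of 0.0068, and of 1.4e-04 with the replicate block. Of the other 5 spag6.L probe sets, 4 fell with the replicate block, and the one that did not was at 3.48 in GFP embryos. Among the 4 that fell, 1 was dim as well, at 4.45 in GFP embryos. The spoke head gene rsph1.L read 8.71, 9.40 and 9.45 in NICD embryos, against 9.24, 9.95 and 9.87 in GFP embryos. Replicate 1 was again the lowest of both groups, and the difference of -0.50 ± 0.22 (SE) passed only with the replicate block, at a limma-adjusted p of 8.9e-04. drc1.L, of the nexin-dynein regulatory complex, was at -0.52 and 1 of 2 probe sets of the spoke stalk gene rsph3.L at -0.54, and both fell with the replicate block. The docking complex gene odad4.L at -0.26 and the spoke head gene rsph9.L at -0.06 did not pass.

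Of the 13 other cilia and flagella associated probe sets, 10 fell and 1 rose at stage 18 with the replicate block. cfap70.L encodes a protein of the outer arm region. It read 7.14, 7.39 and 7.29 in NICD embryos, against 7.68, 8.33 and 8.28 in GFP embryos. All 3 NICD arrays were below all 3 GFP arrays, and the difference of -0.83 ± 0.19 (SE) had limma-adjusted p of 0.026 unblocked and 1.9e-04 with the replicate block. The doublet proteins cfap45 and cfap52 are each measured on both gene copies, and all 4 probe sets fell with the replicate block, from -0.80 in cfap45.S to -0.50 in cfap52.L. The member that rose was cfap299.L, whose values were 4.81, 6.30 and 6.21 in NICD embryos, against 4.48, 5.58 and 5.63 in GFP embryos. Replicate 1 was far below the other arrays in both groups, and the difference of 0.54 ± 0.44 (SE) had a limma-adjusted p of 0.67 unblocked and 0.0053 with the replicate block. With single arrays left out, that blocked p ran up to 0.051.

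Assembly factors act in the cytoplasm, where dynein arms are put together before they enter the cilium. Of their 10 probe sets, 5 fell at stage 18 with the replicate block. dnaaf3.L read 7.22, 7.45 and 7.49 in NICD embryos, against 7.50, 8.09 and 8.06 in GFP embryos. All NICD values were below all GFP values, by a narrow margin at GFP replicate 1. The difference was -0.50 ± 0.19 (SE), with a limma-adjusted p of 0.23 unblocked and 0.0022 with the replicate block. The others that fell were cfap298.L at -0.32, dnaaf10.L at -0.30, dnaaf5.S at -0.46 and 1 of 3 dnaaf5.L probe sets at -0.39. The other 2 dnaaf5.L probe sets were dim and at 0.21 and 0.13.

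Of 18 intraflagellar transport probe sets, 4 fell with the replicate block at stage 18, where 7.08% of all probe sets were called lower. The median difference was -0.10, and 13 of the 18 were below 0, where 48.3% of all probe sets were. ift52.L, of the IFT-B complex, read 7.42, 7.76 and 7.85 in NICD embryos, against 7.55, 8.01 and 7.98 in GFP embryos. The groups overlapped and the difference of -0.17 ± 0.14 (SE) did not pass in either limma fit. The 4 calls were both probe sets of ift80.L at -0.29, ift74.L at -0.34, and 1 of 2 probe sets of ift27.L, a small GTPase of the complex. That ift27.L probe set bears a suffix that marks probes shared between transcripts. It read 6.47, 6.55 and 6.70 in NICD embryos, against 6.85, 7.19 and 7.08 in GFP embryos. Without overlap, the difference was -0.46 ± 0.12 (SE), with limma-adjusted p of 0.044 unblocked and 0.0077 with the replicate block. With single arrays left out, its p ran up to 0.22 unblocked and 0.070 with the replicate block. The second ift27.L probe set was dim and differed by 0.04.

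None of the 6 probe sets of the BBSome and its chaperones fell. bbs10.L, a chaperonin-like gene needed to put the BBSome together, rose with the replicate block. It read 7.63, 7.26 and 7.25 in NICD embryos, against 7.13, 6.99 and 7.04 in GFP embryos. Every NICD value was above every GFP value, and the difference of 0.32 ± 0.16 (SE) had limma-adjusted p of 0.38 unblocked and 0.012 with the replicate block. With single arrays left out, that blocked p ran up to 0.069. bbs5.L, a BBSome subunit, differed by -0.13 and did not pass. Set side by side, with the replicate block the 51 probe sets of the motility machinery and its assembly had 35 that fell and 1 that rose. The 24 transport probe sets had 4 that fell and 1 that rose, where 7.08% of all probe sets were called lower. The 51 hold every member outside transport and spag7.L, so all 13 other cilia and flagella associated probe sets count among them whatever their function. The difference between these classes was not tested. The symbol spag7.L, with 2 probe sets at 0.03 and 0.17, belongs to neither.

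**Figure D1:**
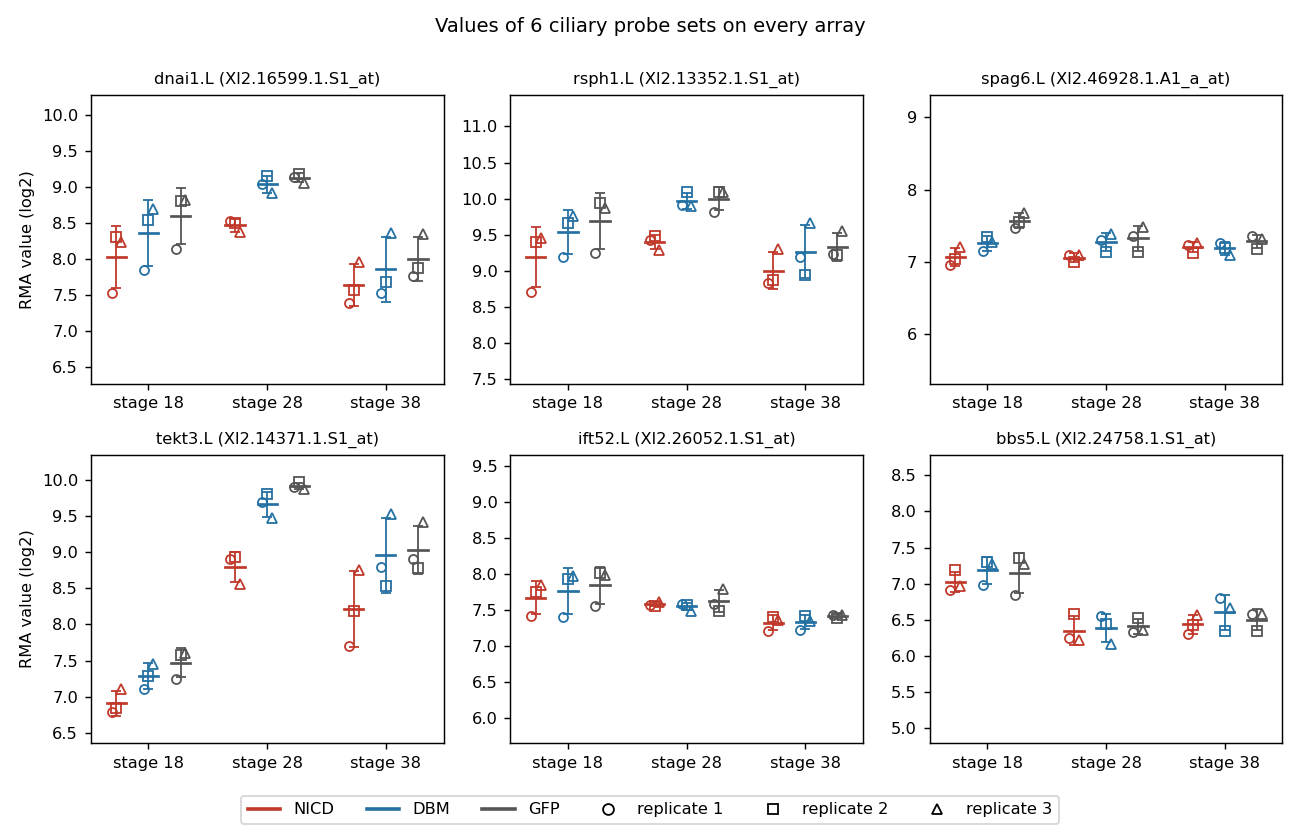
RMA values (log2) of 6 ciliary probe sets on each of the 27 arrays, by stage, with NICD, DBM and GFP embryos side by side. Symbols mark the replicate number, bars the mean and whiskers the SD of 3 arrays, and every panel spans 4 log2 units. In dnai1.L, rsph1.L, spag6.L and tekt3.L the NICD arrays lie below the GFP array of their own number at stages 18 and 28. At stage 18 the same holds for ift52.L. At stages 18 and 28 the ranges of NICD and GFP arrays overlap in ift52.L and bbs5.L, and at stage 18 also in dnai1.L and rsph1.L.

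At stage 28, 25 of the 51 probe sets of the motility machinery and its assembly were lower in NICD than in GFP embryos with the replicate block. No assembly factor or transport gene passed. Without a block, 2 of the 77 members passed, both lower, where 0.236% of all probe sets were called lower. The replicate block gave 25 members that fell, in 22 symbols, and none that rose, where 3.18% of all probe sets were called lower. The median was -0.15 for the members and 0.01 for all probe sets, and 38 of 77 members were lower in every same-number pair, against 18.8% of all probe sets. All 25 were among the 51 probe sets of the motility machinery and its assembly, and 23 of them had also fallen at stage 18 with the replicate block. A further one, cfap299.L, had risen there. None of the 24 transport probe sets passed in either fit, and neither did any of the 10 assembly factor probe sets. The unblocked count was 1 without any 1 of the 3 NICD replicates, GFP replicate 1 or GFP replicate 2.

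tekt3.L showed the largest difference of any member at stage 28. It read 8.90, 8.93 and 8.55 in NICD embryos, against 9.91, 9.97 and 9.88 in GFP embryos. The groups were almost 1 log2 unit apart at their nearest, and the difference of -1.12 ± 0.23 (SE) leaves 0.459 of the GFP level. Its limma-adjusted p was 0.025 unblocked and 1.7e-05 with the replicate block. With single arrays left out, the unblocked p ran up to 0.15. All 6 tektin probe sets fell again with the replicate block, with a median of -0.85.

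dnai4.S read 6.56, 6.69 and 6.76 in NICD embryos, against 7.42, 7.28 and 7.31 in GFP embryos at stage 28. The groups did not overlap, and the difference of -0.66 ± 0.10 (SE) had limma-adjusted p of 0.0045 unblocked and 2.2e-04 with the replicate block. Of the 2 members called without a block, it was the one whose call stood with every array left out in turn, at p up to 0.032. But with the NICD and GFP arrays of stage 28 alone 0 members passed in limma, at a lowest adjusted p of 0.060. In that fit 27 members had an unadjusted p below 0.05, and the share of all probe sets is not given. In the unblocked fit of all arrays, 24 members and 8.61% of all probe sets had an unadjusted p below 0.05. dnai1.L was at 8.53, 8.50 and 8.37 in NICD embryos, against 9.14, 9.18 and 9.06 in GFP embryos. Here the arrays of a group lay close together and the groups were well apart, yet the shared spread of all 9 groups gave -0.66 ± 0.25 (SE) and a limma-adjusted p of 0.33. Its p was 3.8e-05 with the replicate block. dnal1.L at -0.54 and dnali1.S at -0.53 also fell with the replicate block, while dnai2.S at -0.38 did not pass.

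Among docking, nexin-dynein regulatory, spoke and central pair probe sets, several of which are of spag6.L, 8 of 12 fell at stage 28 with the replicate block. rsph1.L read 9.42, 9.49 and 9.29 in NICD embryos, against 9.81, 10.10 and 10.09 in GFP embryos. NICD and GFP arrays did not overlap, and the difference was -0.60 ± 0.22 (SE), with a limma-adjusted p of 0.30 unblocked and 3.5e-04 with the replicate block. The brighter rsph3.L probe set was at -0.68 and drc1.L at -0.42. rsph9.L, which had not passed at stage 18, was at -0.36 and fell with the replicate block, at a limma-adjusted p of 0.021. Among the 13 other cfap probe sets 7 fell with the replicate block, led by cfap52.S at -0.69 and cfap70.L at -0.60. cfap299.L, higher at stage 18, was now lower at -0.41, at a limma-adjusted p of 0.97 unblocked and 0.049 with the replicate block.

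**Figure D2:**
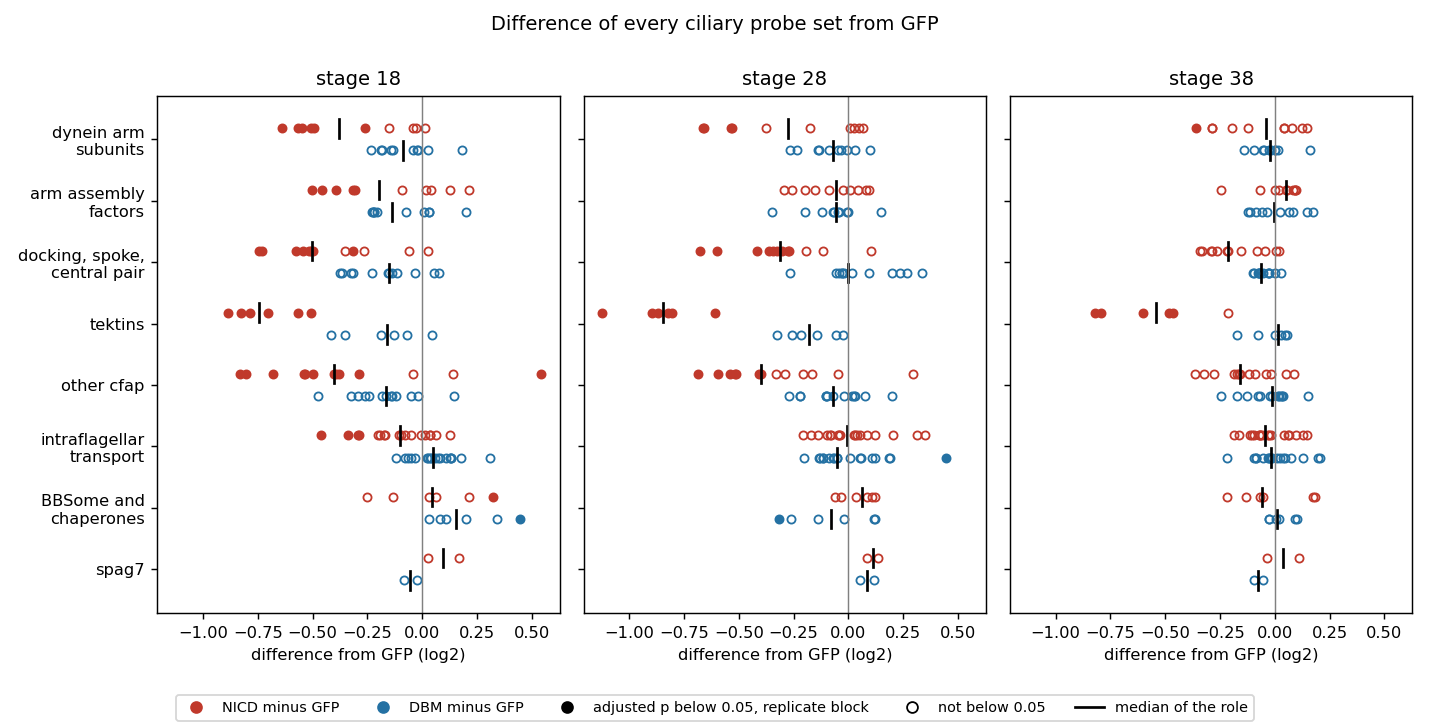
Difference from GFP (log2) of each of the 77 ciliary probe sets, in rows by role, at the 3 stages, with NICD above DBM in every row. Filled points passed at an adjusted p below 0.05 with the replicate block, and black bars are the role medians. The NICD medians of the tektins are -0.74 at stage 18, -0.85 at stage 28 and -0.54 at stage 38, while those of intraflagellar transport are -0.10, -0.01 and -0.05.

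At stage 38 no member passed without a block, where 0.0337% of all probe sets were called lower. The lowest limma-adjusted p was 0.40, and 4 members had an unadjusted p below 0.05, where 3.3% of all probe sets did. Under the block 6 members fell, where 0.668% of all probe sets were called lower. They were 5 of the 6 tektin probe sets and dnai1.L, and all 6 had also fallen at stages 18 and 28 with the replicate block. The median was -0.07 for the members and 0.00 for all probe sets, and 30 of 77 members were lower in every pair, against 16.9% of all probe sets. tekt3.L read 7.70, 8.19 and 8.75 in NICD embryos, against 8.91, 8.78 and 9.41 in GFP embryos. NICD and GFP arrays did not overlap, and the difference of -0.82 ± 0.23 (SE) had a limma-adjusted p of 9.6e-04 with the replicate block. tekt3.S was at -0.79, tekt2.L at -0.60, tekt4.S at -0.48, tekt2.S at -0.47 and dnai1.L at -0.36. The count of 6 was 2 when NICD replicate 1 or 3 or GFP replicate 1 was left out, and 3 when GFP replicate 2 was. The count of 0 without a block was 1 without NICD replicate 3.

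Whether the NICD difference itself changed with stage was tested as an interaction. Without a block 0 members passed for stage 28 against stage 18, with the lowest limma-adjusted p at 0.26. An unadjusted p below 0.05 was found for 2 members and for 7.41% of all probe sets. Fitted with the replicate block, 4 members passed, where 3.18% of all probe sets did. For stage 38 against stage 18 no member passed without a block, with the lowest limma-adjusted p at 0.25. There 5 members and 7.61% of all probe sets had an unadjusted p below 0.05. Fitted with the replicate block, 8 passed, where 3.95% of all probe sets did. In 7 of these 8 the difference was nearer 0 or higher at stage 38, led by cfap70.L, whose NICD difference was -0.83 at stage 18 and 0.05 at stage 38. No tektin was among them.

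Few members differed between DBM and GFP embryos. In DBM against GFP embryos no member passed without a block at stage 18, stage 28 or stage 38, where 0%, 0.107% and 0.0123% of all probe sets passed. The lowest limma-adjusted p were 0.85 at stage 18 and 0.48 at stage 28. An unadjusted p below 0.05 was found for 4, 4 and 0 members, where 4.73%, 6.78% and 1.95% of all probe sets had one. With the replicate block 1, 2 and 0 members passed, where 0.236%, 1.94% and 0.11% of all probe sets did. The median of the members was -0.07, -0.05 and -0.02, and 31, 24 and 7 of 77 were lower in every pair at stages 18, 28 and 38, where 16.9%, 19.4% and 13.9% of all probe sets were. The 51 probe sets of the motility machinery and its assembly had 41, 37 and 32 below 0, and the 24 transport probe sets had 5, 14 and 12 below 0, where 50.5%, 52.8% and 52.1% of all probe sets were. At stage 18 cfap70.L was lowest, with 7.21, 7.69 and 7.98 in DBM embryos, against 7.68, 8.33 and 8.28 in GFP embryos. These groups overlapped, and its difference of -0.47 ± 0.19 (SE) had a limma-adjusted p of 0.083 with the replicate block.

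bbs10.L was the call at stage 18, at 7.72, 7.28 and 7.50 in DBM embryos, against 7.13, 6.99 and 7.04 in GFP embryos. DBM and GFP arrays did not overlap, and it rose by 0.45 ± 0.16 (SE), with a limma-adjusted p of 0.97 unblocked and 0.033 with the replicate block. At stage 28 the same probe set was at 6.86, 6.52 and 6.57 in DBM embryos, against 7.32, 6.72 and 6.87 in GFP embryos. There it was lower in each pair, at -0.32 ± 0.16 (SE) and a limma-adjusted p of 0.046 with the replicate block. The second call at stage 28 was 1 of 2 probe sets of ift57.S, an IFT-B gene, at 0.45, where the other was at -0.13. The DBM difference of stage 28 less that of stage 18 passed in 4 members with the replicate block, where 2.61% of all probe sets did. Unblocked 0 passed, with the lowest limma-adjusted p at 0.31. In that fit 3 members and 7.67% of all probe sets had an unadjusted p below 0.05. Both stage 28 calls and the stage 18 call were lost with 1 or more single arrays left out. The stage 18 count was 0 without any 1 of the 3 DBM replicates, GFP replicate 2 or GFP replicate 3, and 5 without GFP replicate 1 or NICD replicate 1. The stage 28 count was 0 without DBM replicate 1 or 2 or GFP replicate 1 or 2, and 1 without DBM replicate 3, GFP replicate 3 or NICD replicate 1 or 2.

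Set directly against each other, NICD embryos were below DBM embryos in many of the same classes. Without a block 1 member was lower at stage 18, 1 at stage 28 and 0 at stage 38, where 0.3%, 1.16% and 0.469% of all probe sets were called lower. These were ift27.L at stage 18, at -0.49 ± 0.12 (SE) and a limma-adjusted p of 0.045, and dnai4.S at stage 28, at -0.43 ± 0.10 (SE) and a limma-adjusted p of 0.031. The ift27.L probe set is the one whose suffix marks probes shared between transcripts. At stage 38 the lowest limma-adjusted p was 0.25, and 5 members had an unadjusted p below 0.05, where 6.02% of all probe sets did. With the replicate block 21, 22 and 5 members were lower, where 3.38%, 5.04% and 2.21% of all probe sets were. The 24 transport probe sets had 4, 0 and 0 lower in that fit, and the 51 of the motility machinery and its assembly 17, 22 and 5. Below 0 were 23, 11 and 18 of the 24 and 44, 40 and 31 of the 51, where 49.2%, 44.7% and 46.6% of all probe sets were. At stages 18 and 28, 1 member each was higher with the replicate block, cfap299.L at 0.56 and bbs10.L at 0.40, where 2.7% and 2.63% of all probe sets were called higher.

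The tektins differed at all stages of that comparison, with 5, 6 and 4 of 6 probe sets lower with the replicate block. tekt3.L at stage 28 read 8.90, 8.93 and 8.55 in NICD embryos, against 9.70, 9.81 and 9.47 in DBM embryos. NICD and DBM arrays did not overlap, at a difference of -0.87 ± 0.23 (SE) and a limma-adjusted p of 5.9e-05 with the replicate block. At stage 38 the fifth member that was lower was dnal1.L at -0.44. No assembly factor passed at any stage. Without a block, both counts of 1 were 0 with any NICD or DBM array of the stage left out, and the stage 38 count was 1 without NICD replicate 3. With the replicate block, the stage 18 count of 22 was 8 to 14 without any 1 of the 3 DBM replicates, NICD replicate 2 or NICD replicate 3. The stage 38 count was 3 without NICD replicate 1 or DBM replicate 3 and 8 without NICD replicate 2.

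**Figure D3:**
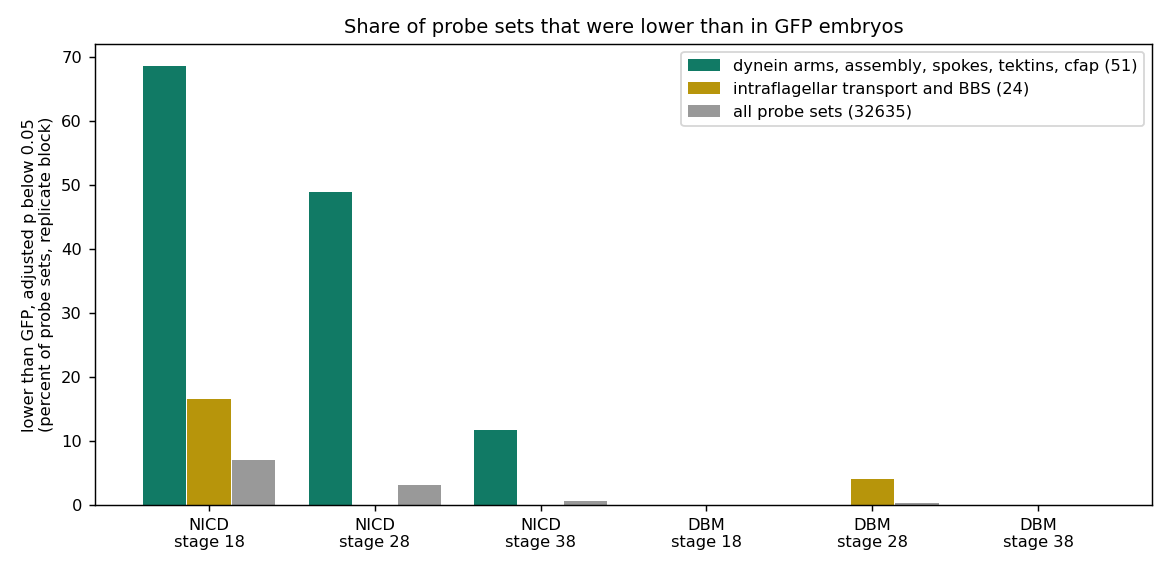
Percent of probe sets lower than in GFP embryos at an adjusted p below 0.05 with the replicate block, for the 51 probe sets of the motility machinery and its assembly, the 24 transport probe sets and all 32635. The 51 include all 13 other cilia and flagella associated probe sets whatever their function. In NICD embryos 35, 25 and 6 of the 51 were lower at stages 18, 28 and 38, against 4, 0 and 0 of the 24, and in DBM embryos 1 transport probe set at stage 28 was lower.

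Levels in GFP embryos were also compared between stages. Between stages 18 and 28, 9 members rose and 20 fell without a block, where 22% of all probe sets were called higher and 29.4% lower. Tektins supplied 4 of the 9. tekt3.L read 7.24, 7.57 and 7.60 at stage 18 and 9.91, 9.97 and 9.88 at stage 28, and it rose by 2.45 ± 0.23 (SE), which is 5.46-fold, at a limma-adjusted p of 1.1e-08. tekt3.S rose by 2.36, tekt2.L by 1.97 and tekt2.S by 1.23, while tekt1.L and tekt4.S did not pass. cfap299.L rose by 1.74, 1 of 2 rsph3.L probe sets by 0.94 and cfap45.S by 0.85. The other rsph3.L probe set, at 0.43, and the other gene copy cfap45.L, at -0.10, did not pass. Of the 10 assembly factor probe sets 5 fell and none rose. cfap298.L was at -1.22, dnaaf3.L at -1.21, cfap300.L at -1.19 and dnaaf10.L at -0.99.

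Between stages 28 and 38, 4 members rose and 37 fell without a block, where 18.8% of all probe sets were called higher and 22.4% lower. Of the 51 probe sets of the motility machinery and its assembly 32 fell and none rose, and all 6 tektin probe sets were among them. dnai1.L read 9.14, 9.18 and 9.06 at stage 28 and 7.76, 7.88 and 8.35 at stage 38, and it fell by 1.13 ± 0.25 (SE), at a limma-adjusted p of 8.0e-04. The groups did not overlap. The largest drop was in cfap45.L, at -1.39. Of the 24 transport probe sets 5 fell and 3 rose. The BBSome subunit genes bbs9.L and bbs7.L rose by 0.93 and 0.55, and ift20.L, an IFT-B gene, by 0.47. The mean of 47 spike-in control probe sets also moved with stage, covering 8.16 to 8.47 on stage 18 arrays, 7.64 to 7.91 on stage 28 arrays and 7.71 to 8.04 on stage 38 arrays, and its part in these differences was not tested.

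**Figure D4:**
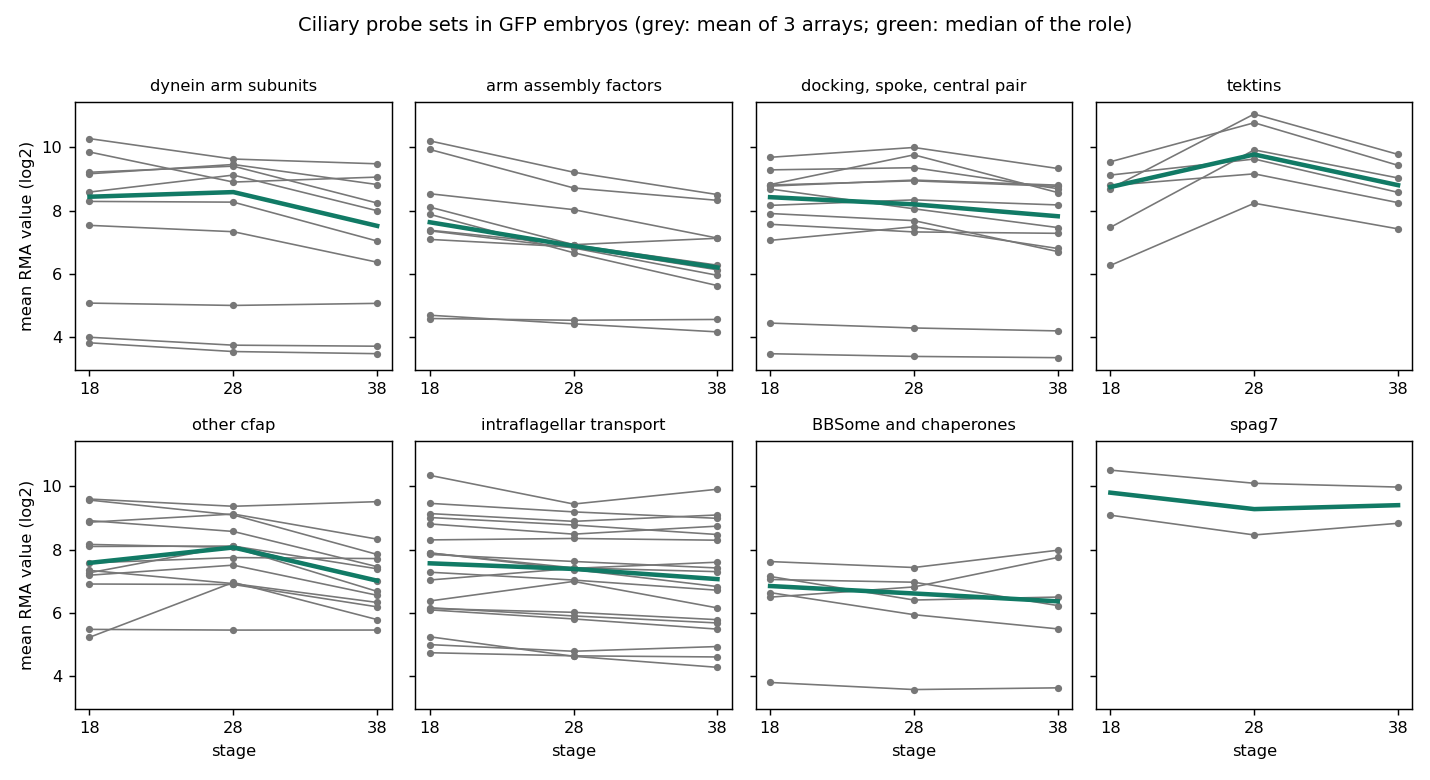
Mean RMA value (log2, 3 arrays) of every ciliary probe set in GFP embryos at stages 18, 28 and 38, in 8 panels by role, with the role median in green. At stage 28 tekt3.L is 2.45 above stage 18, and all 6 tektin probe sets are lower at stage 38 than at stage 28.

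The list of multiciliated cell regulators had 11 probe sets for 9 of 16 listed genes. At stage 18, 3 were lower in NICD than in GFP embryos in the unblocked fit and 5 with the replicate block. At stage 28 these counts were 0 and 3, and at stage 38 both were 0. Of all probe sets 0.732% were called lower unblocked and 7.08% with the replicate block at stage 18, and 0.236% and 3.18% at stage 28. None of the 11 was called higher in either fit. Their stage 18 differences had a median of -0.32 and ran from -1.21 to 0.18, so not all were below 0. At stage 38 the median was 0.03. ccno.S and ccno.L, copies of a cyclin gene needed to multiply basal bodies, were at -1.21 and -1.02 at stage 18 and at -0.22 and -0.03 at stage 28. foxj1.2.L, a relative of the ciliary transcription factor gene foxj1, was at -0.82 at stage 18 and -0.59 at stage 28, and passed at both with the replicate block. foxj1.S was at -0.53 at both stages, and mcidas.S, which starts the multiciliated programme, at -0.32 at stage 18 without passing. In GFP embryos ccno.L was at 9.27 at stage 18, 5.96 at stage 28 and 6.13 at stage 38. The summed linear level of the list on single arrays was 2217 to 2608 in NICD embryos, 2354 to 3526 in DBM embryos and 2932 to 3568 in GFP embryos at stage 18. Such a sum weights the brightest probe sets most and does not measure the list evenly.

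A broader list of other cilium genes, with 88 probe sets for 69 of 166 listed, had 35 lower and 1 higher in NICD embryos at stage 18 with the replicate block. At stage 28 it had 22 lower and at stage 38 it had 3 lower, against 7, 4 and 0 without a block. Of all probe sets 7.08%, 3.18% and 0.668% were called lower at stages 18, 28 and 38 with the replicate block. Without a block 0.732%, 0.236% and 0.0337% were. At stage 18, 6.16% were called higher with the replicate block. In DBM embryos 0, 1 and 0 of the list passed with the replicate block, where 0.236%, 1.94% and 0.11% of all probe sets did. Markers of another skin cell type were lower as well. Of 17 ionocyte probe sets 11 were lower in NICD embryos at stage 18 unblocked and 14 with the replicate block. Their summed linear level, again weighted to the brightest probe sets, was 6034 to 7230 in NICD embryos, 9850 to 11187 in DBM embryos and 9773 to 13769 in GFP embryos. At stage 28, 1 ionocyte probe set was lower in NICD embryos unblocked and 8 with the replicate block. At stage 38 these counts were 0 and 1. In DBM against GFP embryos 2 ionocyte probe sets were higher at stage 28 with the replicate block. Of 12 secretory cell probe sets none was lower in NICD embryos at stage 18 and 1 was higher with the replicate block. Of 16 neuron probe sets, 4 were lower with the replicate block at stage 18 and 5 at stage 28. The part of these cell types in the ciliary values was not tested.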

How the data were processed

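Total RNA from pools of 10 embryos was hybridised to Affymetrix Xenopus laevis 2.0 arrays. The authors deposited RMA values on the log2 scale, and these were used without further normalization. Background correction and summarisation by RMA can compress low values, so differences of dim probe sets may be understated, which was not tested here. A second deposited table held 27 columns of array values under scan names and the authors' adjusted p-values, and none of it was used. Probe sets were named from the platform annotation. Of all probe sets 15505 had 1 symbol, 279 several and 16851 none, and updating symbols through the RefSeq gene table of assembly 10.1 left all 77 members unchanged. Groups came from the sample labels. The members and gene lists were chosen with earlier results of these data known.

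All 27 arrays entered 1 limma 3.58.1 fit in R 4.3.3, with a mean for each of the 9 groups (lmFit, contrasts, eBayes). The Benjamini-Hochberg adjustment ran over 32635 probe sets. Limma is also named in the submitters' processing notes. The labels call the replicates biological but do not say that a number marks a shared clutch. Within a stage, deviations from group means of arrays with the same number correlated at 0.45 to 0.81 in all 27 pairs. Arrays of different numbers had correlations of -0.69 to 0.57 (stage 18), -0.43 to -0.19 (stage 28) and -0.42 to -0.29 (stage 38). The positive ones at stage 18 were between numbers 2 and 3, at 0.48 to 0.57, against 0.45 to 0.56 within these numbers, so there only replicate 1 stood apart. Deviations within a group sum to 0, so the different-number correlations follow in part from the same-number ones and are not separate evidence of pairing. Every same-number correlation was above 0.1, so the numbers were taken to pair the arrays and the replicate block was fitted too. Pairing comes from these values and not from the labels. Members named were those of lowest p, the highest and lowest, a fixed set, and those a role class turned on. Role classes were assigned by hand. The fit was tested on simulated data. Those data had the shared deviations of replicate numbers built in and noise set below the residual SD, so they could not test the pairing. Alternatives left out arrays or dim probe sets (mean below 6), repeated normalization, or changed the fit. The number of arrays limits precision.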

Additional observations from a re-analysis of the deposited data

Results flagged for a closer look

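The stage dependence of 16 differences passed as an interaction with the replicate block, while none passed in limma without a block, where their adjusted p ran from 0.26 to 0.90. Between stages 18 and 28 the NICD difference changed by -0.95 in cfap299.L, 0.49 in 1 dnaaf5.L probe set, 0.58 in 1 ift27.L probe set and 0.42 in 1 spag6.L probe set. Between stages 18 and 38 it changed by -0.82 in cfap299.L, 0.63 in cfap45.S, 0.88 in cfap70.L, 0.56 in dnaaf3.L, 0.48 in 1 dnaaf5.L probe set, 0.54 in drc1.L, and 0.51 and 0.42 in 2 spag6.L probe sets. Each positive change means a smaller deficit or a higher value relative to GFP embryos at the later stage, and not a higher level as such. The DBM difference changed between stages 18 and 28 by -0.76 in bbs10.L and by 0.61, 0.63 and 0.53 in 3 spag6.L probe sets, which share a gene and are not separate findings. The share of all probe sets that passed this DBM interaction was 2.61%. With single arrays left out, these counts ran from 1 to 5 for NICD at stage 28, from 3 to 11 for NICD at stage 38 and from 2 to 6 for DBM. The count for NICD at stage 28 was 1 without replicate 2 or 3 of stage 18 NICD, replicate 2 or 3 of stage 18 GFP, replicate 1 or 2 of stage 28 NICD, or replicate 2 of stage 28 GFP. It was 2 without replicate 1 of stage 28 GFP or replicate 2 of stage 28 DBM. For NICD at stage 38 it was 3 to 5 without replicate 2 or 3 of NICD or GFP at stage 18, replicate 1 or 2 of stage 38 NICD, or replicate 2 or 3 of stage 38 GFP. For DBM it was 2 without replicate 2 of stage 28 DBM. The causes were not tested.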

How the results depend on the processing

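Counts of members below an adjusted p of 0.05 depended on the replicate block. With the replicate block the counts for NICD against GFP were 41, 25 and 6 at stages 18, 28 and 38, those for DBM against GFP 1 and 2 at stages 18 and 28, and those for NICD against DBM 22, 23 and 5. The interactions gave 4 and 8 for NICD and 4 for DBM. Using the arrays of a comparison alone gave 0 and 0 for NICD against GFP at stages 18 and 28, and 0 and 10 for NICD against DBM. With numbers 2 and 3 alone at stage 18, 9 members passed for NICD against GFP, 0 for NICD against DBM (12 with the replicate block) and 2 for the NICD interaction of stage 38 (13 with the replicate block). For NICD against DBM at stage 18, dropping dim probe sets or repeating quantile normalization gave 2, and trend and robust fitting gave 0 at stages 18 and 28. With the replicate block, DBM against GFP gave 5 without dim probe sets at stage 18 and 1 at stage 28 with 1 probe set per symbol or repeated normalization, and the DBM interaction gave 2 with 1 probe set per symbol. These blocked alternatives were chosen after seeing the data. Shares of all probe sets are not given for the alternatives or for fits with single arrays left out. Changes in their counts therefore cannot be read as particular to the members. With single arrays left out, counts without a block ran from 0 to 16, 1 to 2 and 0 to 1 for NICD against GFP, and from 0 to 0, 0 to 0 and 0 to 1 for NICD against DBM. With the replicate block they ran from 25 to 40, 17 to 25 and 2 to 7 for NICD against GFP, from 0 to 5 and 0 to 2 for DBM against GFP, from 8 to 24, 16 to 25 and 3 to 8 for NICD against DBM, from 1 to 5 and 3 to 11 for the NICD interactions, and from 2 to 6 for the DBM interaction. The causes were not tested. Between GFP stages the counts of 29 and 41 ran from 23 to 27 and 35 to 41, and the block could not be fitted because numbers are nested in stages. Among the values for named members under alternatives, 923 kept their side of the threshold, 140 newly passed, 44 no longer passed and 3 changed sign. Those 3 were DBM against GFP at stage 38, in cfap73.S, which ran from -0.49 to 0.035 with single arrays left out, and ift22.S, which ran from -0.067 to 0.45. The signs turned without DBM replicate 1 in cfap73.S and without GFP replicate 1 or DBM replicate 3 in ift22.S.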
